A study of Homo sapiens with 2 samples.

Results

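The genes described here encode 10 enzymes that take glucose to lactate, namely HK2, GPI, PFKP, ALDOA, TPI1, GAPDH, PGK1, ENO1, PKM and LDHA, out of 19820 protein-coding genes of the annotation. They were taken as a named list of enzymes, with no measured value used in the choice, and every one of the 10 was found in the annotation. In both conditions all 10 had an NRF-1 peak within 1 kb of a coding transcript start. By fold enrichment the strength of these peaks spanned nearly the whole range of the data. On that measure HK2, LDHA, PGK1 and ENO1 carried strong peaks, and GAPDH 1 of the weakest promoter peaks of any gene. PFKP and ALDOA had wide and shallow peaks in both lists, PKM only in siControl. The order of the enzymes was largely the same in siControl and siAATF cells, which does not show whether NRF-1 binding changed at all peaks alike. The enzyme with the largest shift in rank was PKM, whose peak was called in separate parts in siAATF.

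Glycolysis breaks glucose down to pyruvate in the cytosol, and lactate dehydrogenase then turns pyruvate into lactate. Glioblastoma cells, like many tumour cells, run this pathway at a high rate even where oxygen is present, and several of its genes are known targets of the hypoxia-inducible factor HIF-1, which binds a short word in their promoters. NRF-1 (nuclear respiratory factor 1) is better known for the other arm of energy metabolism: it binds a GC-rich palindrome in the promoters of nuclear genes for the respiratory chain, and more widely in CpG-rich promoters. AATF (apoptosis antagonizing transcription factor) is a transcriptional cofactor. The study asked whether NRF-1 stays on its promoters when AATF is depleted.

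The data are the NRF-1 peak lists of U251 cells, an established human glioblastoma line, made by ChIPmentation, a form of chromatin immunoprecipitation in which a transposase adds the sequencing adapters. Cells were transfected with a control siRNA (siControl) or an siRNA directed against AATF (siAATF); both groups therefore carry an siRNA, and per the study a single AATF siRNA sequence was used for this assay, so that its off-target effects cannot be told apart from the loss of AATF. The series text names U138 cells, the sample labels and the study's results U251. The protocol speaks of duplicates, but each label carries replicate 1 and each condition has 1 list; pooling of reads was not stated, so no difference between conditions below has a replicate check or a test, and intervals given for shares of genes (exact Clopper-Pearson, 95%) cover counting error only.

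The siControl list held 18014 peaks with a median fold enrichment of 5.82 and the siAATF list 18454 peaks with a median of 5.59. Fold enrichment is the mean height of a peak over the local background of its own library, and −log10 q is the significance the peak caller gave it. Read depth is not recorded in the lists and no input library was named, so each peak was placed by its percentile rank among the peaks of the same list (0 for the weakest peak, 100 for the strongest), and conditions were compared by rank. Ranks within a list do not show a gain or loss of NRF-1 shared by all peaks. The study reports that AATF silencing moved NRF-1 from the nucleus towards the cytoplasm in U251 cells. Ranks are by fold enrichment unless −log10 q, the order by significance, is named. Where a gene had several promoter peaks, the one with the highest fold enrichment stood for it.

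The enzymes differed in the sequence under their peaks. The peaks were searched on both strands for the NRF-1 core GCGCATGCGC, which is its own reverse complement, allowing up to 1 mismatch. 5 of the 10 enzymes held such a core in the promoter peak in both lists, a share of 50% (18.7 to 81.3). The share over all coding genes with a promoter peak was 23.9% (siControl) and 24% (siAATF). A match is a description of letters and not a measured binding site. The matches are printed 5′ to 3′ on the strand of the gene (minus for ENO1, plus for the others), from the hg19 sequence, with 10 bases on either side and the core in capitals:
HK2 (chr2:75060975-75061004): cgcggcggtgGCTCATGCGCctttccgtcc
GPI (chr19:34856051-34856080): gccgggccggGCGCCTGCGCcataaaggcc
GPI (chr19:34850171-34850200): ctcccgatgtGCGCATGAGCgcagccgccc
GPI (chr19:34850198-34850227): cccctacgcaGCGCGTGCGCacgtgcactc
GPI (chr19:34850379-34850408): cgccccatccGCGCCTGCGCtcaaccccgc
ALDOA (chr16:30076406-30076435): gagagcgcgcACGCATGCGCgacccagccc
ENO1 (chr1:8939343-8939372): ggagggcagcGCGCAGGCGCaggcggcgca
LDHA (chr11:18417756-18417791): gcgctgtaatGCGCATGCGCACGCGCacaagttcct
LDHA (chr11:18417895-18417924): gccacaaagcGCGCATGCGCgcggatcacc

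With positions counted from 1 at the 5′ end of the core, the departures were G3T in HK2, A5C in the GPI match next to the canonical start, C8A, A5G and A5C in the GPI matches farther upstream, G1A in ALDOA and T6G in ENO1. LDHA was the only enzyme of the 10 with the core unaltered (10%, 0.253 to 44.5), beside 3.88% (siControl) and 3.96% (siAATF) of all coding genes with a promoter peak. It held the exact core at both places shown, and in the first of them a further match with T6C overlaps the exact core, so that the capitals there run over both. PFKP, TPI1, GAPDH, PGK1 and PKM had no match in their promoter peaks, which says only that these letters are missing from those windows.

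The cores lay at varied distances from the canonical start. In HK2 the core began 269 bases before the canonical start, and in GPI 40 bases before it. In ENO1 it began 617 bases before the canonical start and 113 bases before the nearest coding start, and in ALDOA 665 bases before the canonical start and 356 bases after the nearest one. In LDHA the exact cores began 59 bases before and 80 bases after a coding start that lies 1715 bases inside the gene, the latter in the 5′ UTR of that alternative transcript. Matches lay within 150 bp of the peak midpoint in 3 enzymes, GPI, ENO1 and LDHA, in either list. The share of all coding genes is not available for that narrower window, so this count has no background beside it.

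**Figure D1:**
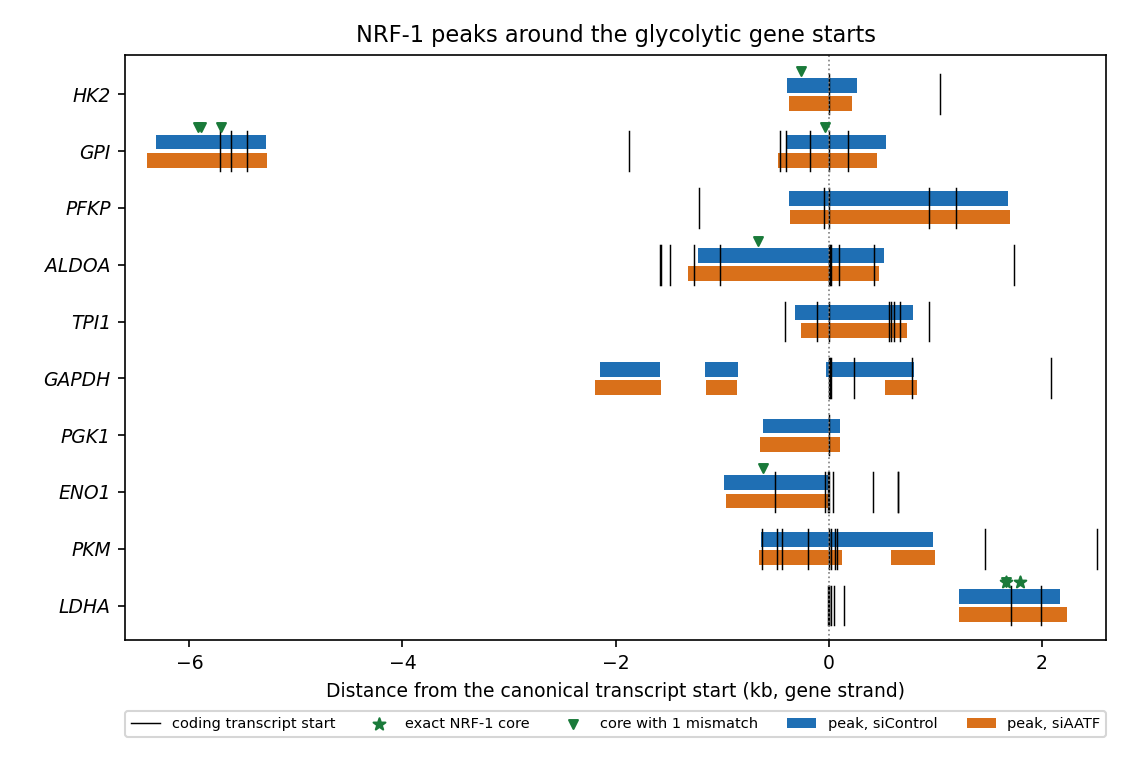
Position of NRF-1 peaks (bars; siControl blue, siAATF orange) along the gene strand in kb from the canonical transcript start of each enzyme, with coding transcript starts as black ticks and NRF-1 cores in promoter peaks as green symbols; a peak of PGK1 at a start 193509 bp upstream is outside the axis. The peaks of 8 enzymes lie over or against the canonical start in both lists, whereas those of LDHA begin 1227 bp downstream and the strongest GAPDH peak of the region lies upstream of its 1 kb window.

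Every enzyme had its promoter peak in both lists, 10 of 10 in each (100%, 69.2 to 100), where 61% of all coding genes had a siControl peak and 60.6% a siAATF peak. No enzyme had a peak in 1 list only (0 of 10, upper limit 30.8%), beside 2.79% of all coding genes. Counting only peaks with a −log10 q of at least 5 left 9 of 10 in each list (90%, 55.5 to 99.7), beside 51.4% of coding genes in siControl and 51.4% in siAATF, and the enzyme lost was GAPDH. Most of these enzymes are made in nearly every cell type, whereas the shares over all coding genes include many genes of other tissues.

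The canonical start itself lay under a peak in 9 of 10 enzymes in siControl (55.5 to 99.7), beside 53.7% of coding genes with such a start. In siAATF it did so in 7 of 10 (70%, 34.8 to 93.3), beside 54.1% of all. LDHA was uncovered in both lists, and GAPDH and ENO1 in siAATF only. The difference in ENO1 amounted to 5 bases: the edge of the siControl peak lay on the canonical start and the siAATF peak ended 5 bases short of it.

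**Figure D2:**
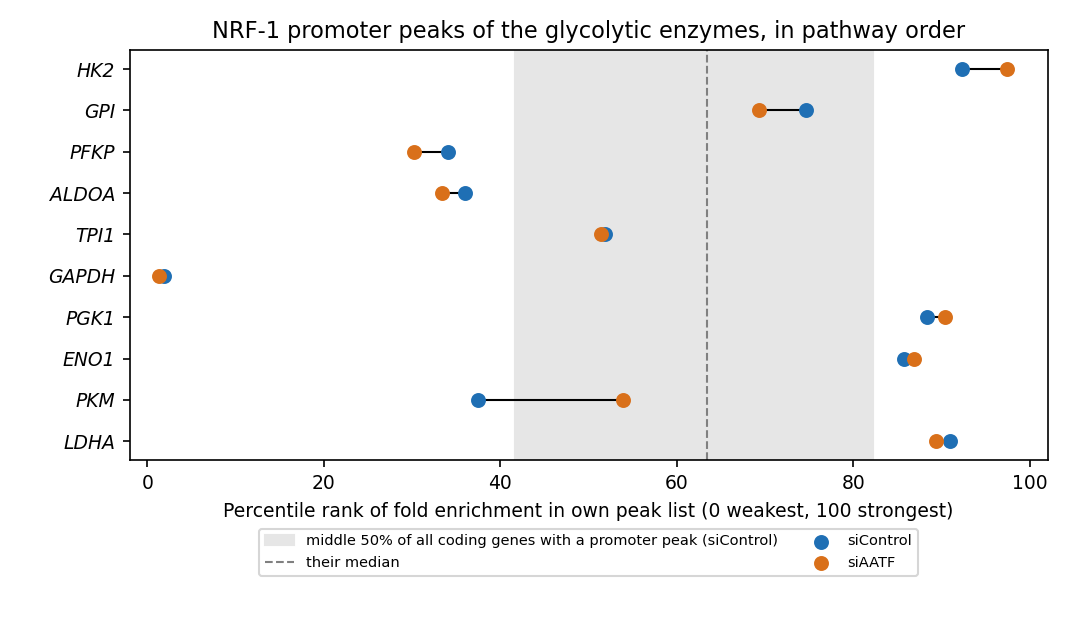
Percentile rank of the strongest promoter peak of each enzyme in its own list (x axis, 0 weakest to 100 strongest; siControl blue, siAATF orange), in pathway order from top to bottom, with the middle 50% and the median (63.4) of all coding genes with a promoter peak in siControl. 4 enzymes sit above the grey band in both lists, PFKP, ALDOA and GAPDH sit below it in both, and the longest line is that of PKM.

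HK2, hexokinase 2, traps glucose in the cell by phosphorylating it and is the hexokinase that tumour cells commonly induce. By fold enrichment its peak was the highest-ranked of the 10 in both lists, while by −log10 q it ranked 76.2 and 78.1, below those of GPI, LDHA, ENO1 and ALDOA. It lay at chr2:75060858-75061517 (660 bp) in siControl and chr2:75060882-75061471 (590 bp) in siAATF. Its fold enrichment was 9.12 in siControl and 9.37 in siAATF, its −log10 q 30.3 and 30.7, and its rank 92.3 and 97.4, a difference of 5.13 points. The peak covered the canonical start and, in siControl, the first 264 bases of the gene, all of them 5′ UTR in the first exon. The start of HK2-DT, a long noncoding RNA that is divergent to HK2, lay under the same peak, so that a peak at this site cannot be assigned to either of them.

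GPI, glucose-6-phosphate isomerase, makes fructose 6-phosphate. It had separate promoter peaks in both lists, at separate groups of start sites. The upstream one, at chr19:34849787-34850824 in siControl and chr19:34849708-34850833 in siAATF, covered 3 alternative coding starts, the farthest 5716 bp before the canonical start. Its −log10 q of 102.8 in siControl and 88.6 in siAATF ranked 99.8 and 99.7 by significance, the highest of the enzymes, while by fold enrichment (7.59 and 6.62) it ranked 74.6 and 66.5. The start of a long noncoding RNA without a gene symbol also lay under this upstream peak in both lists. The upstream peak therefore cannot be assigned to either gene. The peak over the canonical start, chr19:34855702-34856639 in siControl and chr19:34855626-34856551 in siAATF, had a fold enrichment of 7.39 and 6.82, a −log10 q of 54.6 and 49.7, and a rank of 71.8 and 69.3. The upstream peak was thus the stronger of the pair by fold enrichment in siControl and the weaker in siAATF. The gene's difference in rank of −5.27 points compares different peaks, and the canonical peak alone differed by −2.42 points. A further weak peak inside the gene, at chr19:34882506-34883453 (rank 4.96), was called in siAATF only.

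PFKP, the platelet type of phosphofructokinase, catalyses the committed step of the pathway. Its peak was the widest of the 10, 2056 bp in siControl (chr10:3109365-3111420) and 2062 bp in siAATF (chr10:3109378-3111439), wider than 99.8% of the peaks of either list. It covered 4 of 10 coding starts, the whole first exon and 1521 bases beyond it in siControl, within the first intron. Over this width the fold enrichment was 4.83 and 4.51, the −log10 q 14.8 and 14.4, and the rank 34.1 and 30.2. PFKP was also the only enzyme with 2 peaks inside the gene, more than 1 kb from any of its coding starts, that recurred in both lists. They lay at chr10:3137884-3138277 (rank 45.6) and chr10:3149682-3150238 (rank 37.4) in siControl, and ranked 47.6 and 39.0 in siAATF, above the promoter peak in each list. By −log10 q they lay below it, at 36.9 and 32.3 against 60.3 in siControl and 40.2 and 34.5 against 61.7 in siAATF.

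ALDOA, aldolase A, splits fructose 1,6-bisphosphate. A peak of 1740 bp in siControl (chr16:30075856-30077595) and 1795 bp in siAATF (chr16:30075759-30077553) ran over 6 and 7 of its 12 coding starts. The start of a long noncoding RNA without a gene symbol lay under the same peak in both lists, so that the peak cannot be assigned to either gene. The fold enrichment was 4.93 and 4.67, which ranked 36.0 and 33.3, whereas the −log10 q of 45.4 and 40.8 ranked 83.4 in both lists. No other enzyme had so wide a gap between its rank by height and its rank by significance in either list.

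TPI1, triosephosphate isomerase, interconverts the triose phosphates made by aldolase. Its peak covered the canonical start and 6 of 8 coding starts in both lists, at chr12:6976383-6977486 (1104 bp) and chr12:6976436-6977431 (996 bp). It had a fold enrichment of 5.94 in siControl and 5.67 in siAATF and a −log10 q of 22.9 and 18.7. The rank by fold enrichment was 51.8 and 51.4, the smallest difference of the 10 when the strongest promoter peak stood for each gene. By −log10 q TPI1 ranked 70.5 and 67.7, a difference of −2.79 points, and the smallest on that measure was that of ALDOA (−0.0387).

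GAPDH, glyceraldehyde-3-phosphate dehydrogenase, makes the NADH that lactate dehydrogenase later uses up. It is among the most highly transcribed genes of most cells, and by fold enrichment its promoter peaks were near the bottom of both lists. By −log10 q the peaks that stood for it ranked 30.0 in siControl and 26.4 in siAATF. In siControl a peak of 826 bp (chr12:6643654-6644479) lay over the canonical start with a fold enrichment of 2.95, a −log10 q of 4.25 and a rank of 1.52. In siAATF the called region at the gene was 303 bp long (chr12:6644212-6644514) and began 529 bp downstream of the canonical start, with a fold enrichment of 2.85, a −log10 q of 3.96 and a rank of 1.32. The other promoter peak, about 1 kb upstream at the start of the long noncoding RNA GAPDH-DT, had a fold enrichment of 3.04 in siControl (chr12:6642526-6642830, rank 1.87) and 2.44 in siAATF (chr12:6642533-6642821, rank 0.515). Of the genes with a promoter peak, 0.471% ranked lower than GAPDH in siControl and 0.35% in siAATF.

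A much stronger peak stood upstream of GAPDH, outside the 1 kb window. It lay at chr12:6641532-6642096 in siControl and chr12:6641493-6642108 in siAATF, with its midpoint 1869 and 1882.5 bp before the canonical start and no coding start or noncoding RNA start under it. The fold enrichment was 5.51 and 6.01, the −log10 q 20.1 and 25.1, and the rank 45.1 and 57.0. A promoter window of 2 kb would therefore have given GAPDH this peak and a rank difference of 11.9 points in place of −0.548. The −0.548 points compare different peaks, the one at GAPDH-DT in siControl and the one at the gene in siAATF. With the peak at or nearest to the canonical start the difference was −0.204 points.

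PGK1, phosphoglycerate kinase 1, yields the first ATP of the pathway. The peak over its canonical start, chrX:77359132-77359851 (720 bp) in siControl and chrX:77359102-77359853 (752 bp) in siAATF, had a fold enrichment of 8.69 and 8.39, a −log10 q of 23.4 and 23.0, and a rank of 88.4 and 90.3. 613 of its bases lay upstream of the canonical start in siControl. The annotation also gives PGK1 a coding start 193509 bp upstream, where a peak (chrX:77165865-77166461, rank 78.7 in siControl and 71.9 in siAATF) covered the coding start of ATP7A, a copper transporter. That peak was not used for PGK1, since the one at the canonical start was stronger in both lists.

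ENO1, enolase 1, produces phosphoenolpyruvate. Its peak, chr1:8938745-8939724 (980 bp) in siControl and chr1:8938750-8939712 (963 bp) in siAATF, lay entirely on the upstream side of the canonical start, over the start of the antisense RNA ENO1-AS1. The peak cannot be assigned to either of these genes. The fold enrichment was 8.45 and 8.08, and the −log10 q 77.0 and 71.6. The rank was 85.7 and 86.9 by fold enrichment, and 95.5 and 96.4 by significance. A further peak inside the gene, chr1:8933145-8933786 in an intron (rank 37.7), was called in siControl only and held a core with 1 mismatch, G3A.

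PKM, pyruvate kinase M, makes pyruvate. In siControl 1 peak of 1622 bp (chr15:72522548-72524169) lay over the canonical start and 8 of 12 coding starts, with a fold enrichment of 5.01, a −log10 q of 12.9 and a rank of 37.4. In siAATF the same stretch was called as 2 peaks 463 bp apart. The one over the start, chr15:72523407-72524183 (777 bp), had a fold enrichment of 5.81, a −log10 q of 17.8 and a rank of 53.9, and covered the same number of coding starts. The one in the first intron, chr15:72522536-72522943 (408 bp), had 3.58, 5.67 and 9.30. The rank of the strongest peak thus differed by 16.5 points, more than in 89.2% of coding genes with a peak in both lists, and by 9.34 points when ranked by −log10 q. Fold enrichment is a mean over the called region, and here the called regions differed in extent; the part of this in the difference of rank was not tested.

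Outside this stretch PKM had a weak peak at an alternative start in siAATF only, chr15:72514844-72515144 (rank 14.3), and a weak intronic peak in both lists (rank 8.50 and 15.2).

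LDHA, the A subunit of lactate dehydrogenase, regenerates NAD+ by reducing pyruvate. Neither list held a peak at its canonical start or at the 5 coding starts within 141 bp of it. The peak began 1227 bp downstream, at chr11:18417337-18418283 (947 bp) in siControl and chr11:18417337-18418348 (1012 bp) in siAATF. It lay wholly within the first intron of the canonical transcript, between exon 1 (chr11:18416110-18416183) and exon 2 (chr11:18418366-18418515), and covered the remaining 2 of 8 coding starts, 1715 and 1991 bp inside the gene. The fold enrichment was 8.94 and 8.30, the −log10 q 81.1 and 74.4, and the rank 90.9 and 89.4. By significance only the upstream GPI peak stood above it among the 10 in either list, and the exact cores printed above lay near its midpoint.

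**Figure D3:**
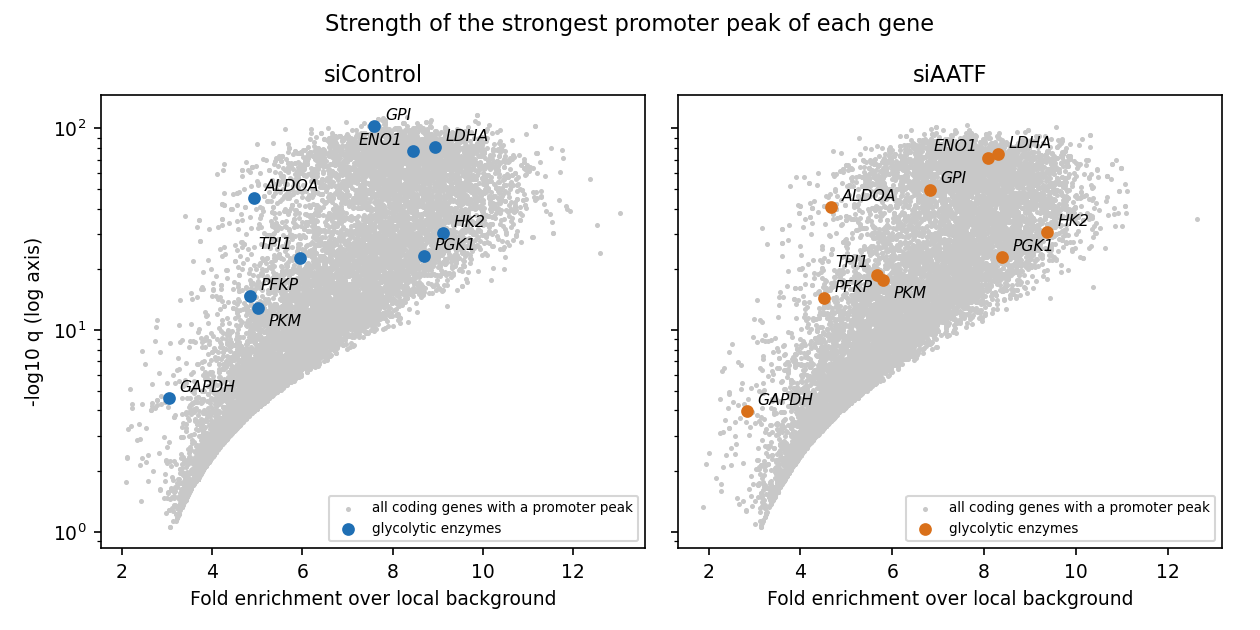
Fold enrichment (x axis) against −log10 q (y axis, log scale) of the strongest promoter peak of each coding gene (grey, 12099 in siControl and 12010 in siAATF) and of the 10 enzymes (coloured and named). ENO1 and LDHA lie high on both measures, ALDOA is far more significant than its height alone would place it, and GAPDH lies near the lower left end of the cloud in both panels.

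Set side by side, the median rank of the 10 enzymes was 63.2 in siControl (1.87 to 92.3) and 61.6 in siAATF (1.32 to 97.4). Over all coding genes with a promoter peak it was 63.4 and 64.4. The values of single enzymes spread towards both ends. With canonical starts only, which leaves out LDHA, the median of the enzymes was 51.8 and 53.9. With peaks of a −log10 q of at least 5 it was 62.6 and 54.1. That setting leaves out GAPDH and also takes ranks among fewer peaks, so these values are not on the scale of the others. The median over all coding genes is not available for it. By −log10 q their median rank was 73.5 and 75.2, beside 65.0 and 66.1 over all. For 79 genes of respiratory chain and ATP synthase (OXPHOS) subunits, the group for which NRF-1 is best known, 74 had a peak at a promoter in both lists, at a median rank of 73.7 and 73.9 by fold enrichment and 74.9 and 73.9 by −log10 q. 47.3% of those held a core with up to 1 mismatch and 8.11% the exact core, beside 5 and 1 of the 10 enzymes.

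By fold enrichment the shallow peaks ranked near other wide promoter peaks. The 337 coding promoter peaks of at least 1500 bp in siControl had a median rank of 35.1 by fold enrichment and 61.9 by −log10 q, and PFKP, PKM and ALDOA ranked 34.1, 37.4 and 36.0 by fold enrichment. By −log10 q they ranked 60.3, 57.2 and 83.4, so that ALDOA stood well above the wide peaks on that measure. The 6731 peaks from 500 to 1000 bp had a median rank of 70.8. The enzymes' peaks had a median width of 1009 bp (siControl) and 944.5 bp (siAATF), beside 854 and 866 bp over all coding genes.

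Between conditions, 4 enzymes ranked higher in siAATF (HK2, PGK1, ENO1 and PKM) and 6 lower (GPI, PFKP, ALDOA, TPI1, GAPDH and LDHA). The median difference, siAATF minus siControl, was −0.467 points and the values ran from −5.27 to 16.5. Over 11778 coding genes with a peak in both lists the median was 0.156 points, with 6021 higher and 5757 lower. None of the 10 differed by more than 20 points, beside 3.65% of all coding genes that were higher by more than 20 points and 2.9% that were lower. Among peaks with a −log10 q of at least 5, PKM differed by 20.8 points and thus passed that mark. The share of all coding genes past that mark is not available for that setting, where ranks were taken among fewer peaks. The median size of the difference regardless of sign was 2.29 points for the enzymes and 5.12 points over all coding genes. With 1 list per condition these values have no error, and neighbours in the order such as PGK1 and LDHA, which changed places, cannot be ranked against each other.

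Some differences had another sign when peaks were ranked by significance. By −log10 q, 6 enzymes were higher in siAATF and 4 lower, and the signs of PFKP and LDHA turned to 1.38 and 0.549 points. HK2, PGK1, ENO1 and PKM were higher by either measure.

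The promoters of the enzymes were GC-rich. Within 1 kb either side of the canonical start the median GC content was 64%, from 55.3% in PGK1 to 72.6% in PFKP, beside 56.1% over all coding promoters and 58.2% over those with a peak in siControl. The CpG content relative to that given by base composition had a median of 0.758 (0.645 to 0.84), beside 0.639 over all, 0.71 over promoters with a peak and 0.316 over those without. By fold enrichment PGK1, with the lowest GC content, had 1 of the strongest peaks, and PFKP, with the highest, 1 of the weaker ones. By −log10 q PGK1 ranked 70.8 in siControl and 72.2 in siAATF, and PFKP 60.3 and 61.7.

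Short words were counted on both strands from 250 bases before to 50 after the canonical start. The hypoxia response word ACGTG, the core of the site bound by HIF-1, was present in 6 of 10 enzymes: 5 times in LDHA, 3 times in PGK1, 2 times in HK2 and 1 time each in PFKP, ALDOA and GAPDH. It was present in 23.3% of all coding promoters, 26.6% of those with an NRF-1 peak in siControl and 23.1% of OXPHOS promoters. The E-box CACGTG, which contains ACGTG on both strands and so counts 2 times towards that word, was found in LDHA alone, at 2 places, and in 8.75% of all promoters. The GC box GGGCGG was present in 8 of 10 enzymes, all but GAPDH and LDHA, in 61.8% of all promoters and in 77.0% of those with an NRF-1 peak in siControl. In this window none of the 10 held the exact NRF-1 core (1.71% of all promoters did), and GPI alone held it with 1 mismatch (10.6% of all).

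LDHA and PGK1 had the most hypoxia response words, and the upstream stretches with all 5 words of LDHA and 2 of the 3 of PGK1 are printed because they lie differently to the NRF-1 peaks. The capitals mark the words, read on either strand of the gene, with CACGTG in capitals where the E-box is complete:
LDHA (chr11:18415915-18416051): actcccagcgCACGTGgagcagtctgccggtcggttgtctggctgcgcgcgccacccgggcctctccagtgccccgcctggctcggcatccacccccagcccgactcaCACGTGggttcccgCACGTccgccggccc
PGK1 (chrX:77359533-77359576): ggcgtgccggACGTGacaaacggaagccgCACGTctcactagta

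Both are on the plus strand of hg19. The LDHA stretch ran from 195 to 59 bases before the canonical start, more than 1 kb away from the NRF-1 peak with its exact cores. The PGK1 stretch ran from 212 to 169 bases before the canonical start and lay inside the NRF-1 peak of both lists, which had no core. HIF-1 was not measured here.

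**Figure D4:**
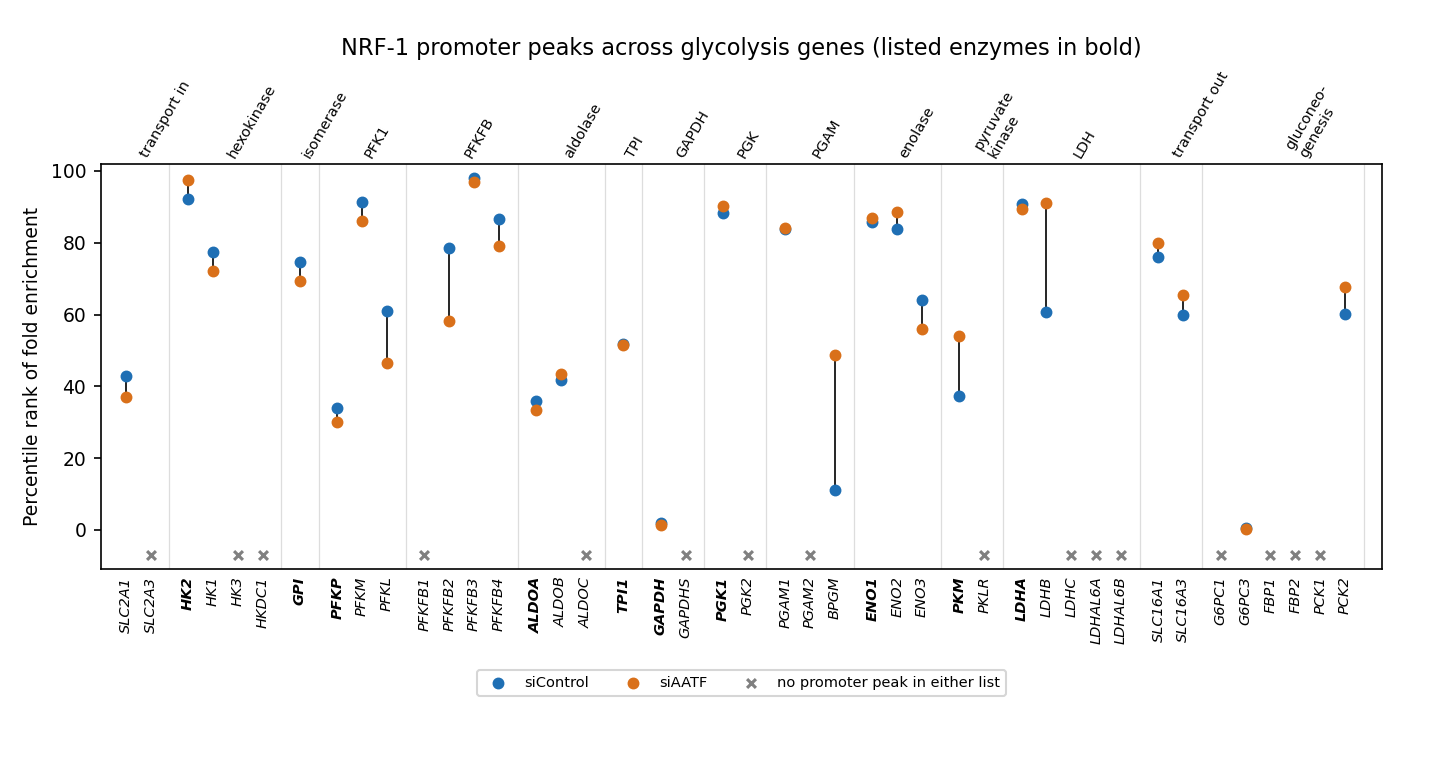
Percentile rank by fold enrichment (y axis) of the strongest NRF-1 promoter peak of glycolysis genes grouped by step (siControl blue, siAATF orange; crosses below 0 mark genes without a promoter peak in either list; the 10 enzymes in bold). All 10 enzymes have a peak, many of the other genes have none, and the longest lines belong to BPGM and LDHB.

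The 34 other glycolysis genes, a list of isozymes, mutases, transporters, PFKFB regulators and gluconeogenic enzymes, gave a different count. 17 had a promoter peak, the same 17 in both lists (50%, 32.4 to 67.6). The shares over all coding genes, 61% in siControl and 60.6% in siAATF, lay inside that interval. Among the genes of this list without a peak were SLC2A3, HK3, HKDC1, PFKFB1, ALDOC, GAPDHS, PGK2, PGAM2, PKLR, LDHC, LDHAL6A, LDHAL6B, G6PC1, FBP1, FBP2 and PCK1. Many of these are known for expression in a restricted set of tissues, such as PKLR and G6PC1 in liver, and GAPDHS, PGK2 and LDHC in testis. Their median CpG ratio was 0.272, beside 0.63 for the 17 with a peak.

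The 3 highest ranks in siControl among them were those of PFKFB3 (98.0, and 96.9 in siAATF), PFKM (91.4 and 86.0) and PFKFB4 (86.6 and 79.2). PFKFB3 and PFKFB4 set the level of fructose 2,6-bisphosphate, the activator of phosphofructokinase. For PFKFB3 and for PFKM, the muscle phosphofructokinase, these ranks belong to peaks at alternative coding starts far upstream, and the PFKM one also covered the coding start of SENP1. The peak over the canonical start ranked 48.1 and 29.5 for PFKFB3 and 28.1 and 16.7 for PFKM, the latter below PFKP in both lists. The median difference in rank of the 17 genes was −0.367 points and its median size 5.43 points. 2 ranked higher in siAATF by more than 20 points and 1 lower, beside 3.65% and 2.9% of all coding genes. These are named here because of their values: BPGM (11.1 and 48.8), LDHB (60.8 and 91.0) and PFKFB2 (78.5 and 58.3).

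5 of the 17 held a core with up to 1 mismatch (29.4%, 10.3 to 56.0), beside 23.9% (siControl) and 24% (siAATF) of all coding genes with a promoter peak. 1 held the exact core (5.88%), beside 3.88% and 3.96%. That gene was PGAM1, the phosphoglycerate mutase that acts between PGK1 and ENO1, named after its sequence was seen. Its exact core is shown as a counterpart to LDHA, since here it began 58 bases before the canonical start, under a peak of rank 83.9 in siControl and 84.3 in siAATF. That peak also covered the coding start of RRP12 and cannot be assigned to either gene. The core is in capitals (hg19, plus strand):
PGAM1 (chr10:99185880-99185909): ccaggatgcaGCGCATGCGCacacctggag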

How the data were processed

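Peak lists of NRF-1 ChIPmentation in U251 cells, 1 for siControl and 1 for siAATF, were analysed. Per the submitters' processing notes and the study's methods, reads were aligned with Bowtie2 to hg19 and peaks were called with MACS2 in an nf-core ATAC-seq pipeline with default settings; the versions of Bowtie2 and MACS2 are not given in the sources used here. Such a pipeline can treat read ends as transposase insertion sites and shift them, and peak edges would then move slightly and alike in both lists. The values deposited by the authors and used as given were peak positions (hg19, bp), fold enrichment over local background, which is a ratio, and −log10 q. The −log10 p and the display score deposited by the authors (a truncated multiple of −log10 q) were not used. The depth of the libraries is unknown, and whether reads mapping to several copies were kept was not stated.

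Promoters were 1 kb on either side of any protein-coding transcript start in GENCODE v44lift37, over 19820 genes, of which 19540 have a canonical start; overlap meant at least 1 base. Sequence came from GRCh37, within whose chromosomes all peaks on chromosomes 1 to 22, X and Y ended. Python 3.11.15, numpy 2.4.6, pandas 2.3.3, scipy 1.17.1, pysam 0.24.0 and matplotlib 3.10.9 were used, and the overlap, rank and word counts were tested on simulated data. All 10 enzymes were named, with the other glycolysis genes that lacked a promoter peak and the 3 of them with the highest rank in siControl; 1 gene of that list is counted but not reported by name here. The enzymes, the gene lists and the measures were chosen with earlier results of these data known. The alternatives were a −log10 q of at least 5, promoters of 500 bp or 2 kb, canonical starts only, ranking by −log10 q or among promoter peaks, the peak nearest to the canonical start, an exact core, cores within 150 bp of the peak midpoint, and cores within 1 kb of the canonical start.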

Additional observations from a re-analysis of the deposited data

How the results depend on the processing

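No paired analysis was possible because each condition had a single list, and for the same reason no replicate could be left out. The median difference in rank of the 10 enzymes (−0.467 points, siAATF minus siControl) changed sign with promoters of 2 kb (0.428), where GAPDH took its upstream peak, and when peaks were ranked by −log10 q (0.746), so its direction was not stable. At a −log10 q of at least 5, where ranks were taken among fewer peaks, it was −1.68. The number of enzymes with an NRF-1 core in the promoter peak, 5 in either list, was 1 in either list for the exact core and 3 in either list within 150 bp of the peak midpoint. For the last of these the share of all coding genes is not available. The number with a promoter peak was 9 in each list at a −log10 q of at least 5 (without GAPDH), beside 51.4% of all coding genes in each list. With canonical starts only it was also 9 in each list (without LDHA), beside 58.2% of all coding genes in siControl and 58.0% in siAATF. The median rank ran from 51.8 to 73.5 in siControl and from 51.4 to 75.2 in siAATF over the alternatives, some of which took ranks among fewer peaks. Depth was unknown, so weak peaks such as those of GAPDH could not be set against a detection limit of either library.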

Other observations

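Processed pseudogenes of the glycolytic enzymes are numerous in the genome, and reads from near-identical copies can be placed at the wrong one. The annotation named 89 pseudogenes after the 10 enzymes, 65 of them after GAPDH. None overlapped a peak in the siControl list. In the siAATF list 1 did, TPI1P2, whose span (chr7:128695277-128697293) met only the end of a peak at chr7:128694875-128695357. That peak had a fold enrichment of 4.57 and a rank of 31.3, and it covered a coding start of TNPO3. TNPO3 had a promoter peak in siControl too (624 bp, rank 23.0), which did not overlap the pseudogene.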
